A study of Homo sapiens with 18 samples.

Results

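The comparison described here set 3 untreated U2OS libraries of cells carrying EWS-FLI1 against 3 untreated libraries of cells carrying EWS-FLI1mut, 6 of the 18 libraries of the series, taken by their titles. U2OS is a human osteosarcoma cell line, and polyadenylated RNA was sequenced from it. Each line held an integrated construct with an mCherry tag: mCherry-EWS-FLI1 or mCherry-EWS-FLI1mut, with mCherry alone (3 libraries) and mCherry-EWS(YS37)-FLI1 (3 libraries) as further untreated groups whose levels are given for reference. All 12 were grown in the same serum-containing medium without the CDK4/6 inhibitor LY2835219, which 6 other libraries received. Libraries of a group are labelled as biological replicates. The labels do not state which change EWS-FLI1mut carries, whether a line is a clone or a pool, or what drives the construct. No second, independently made line of a construct is labelled, so the p-values cover the spread among libraries and not that among lines.

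EWS-FLI1 is the fusion protein of Ewing sarcoma, in which the low-complexity activation region of EWSR1 is joined to the DNA-binding part of FLI1. FLI1 is a transcription factor of the ETS family, whose members bind DNA at a GGAA core, and the fusion is known to activate genes near repeats of that core and to lower genes of the mesenchymal programme. U2OS cells do not carry the fusion of their own, so the construct is its source here.

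Total estimated counts of the 6 libraries lay between 18766232 and 19635921, and 19738 to 20365 genes held at least 1 count. Mitochondrial transcripts took 4.55% to 5.1% of the counts in EWS-FLI1 and 4.25% to 4.69% in EWS-FLI1mut. No pair of libraries was close to identical: over genes, the chi-square per degree of freedom was 4.28 to 7.34 within a group and 16.1 to 22.7 between the groups. In a principal component analysis of the 12 untreated libraries the first component (36.6% of the variance) set EWS(YS37)-FLI1, at 24.05 to 26.36, apart from the other lines. EWS-FLI1 lay there at -12.59 to -13.81, EWS-FLI1mut at -6.251 to -8.559 and mCherry at -2.165 to -5.979. The second component (21.2%) placed EWS-FLI1 at 14.85 to 18.71, EWS-FLI1mut at -6.34 to -8.014, mCherry at -12.88 to -13.46 and EWS(YS37)-FLI1 at 2.45 to 4.647.

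The EWS-FLI1mut line held more RNA of its construct than the EWS-FLI1 line. FLI1 RNA reached 265, 232 and 245 CPM in the EWS-FLI1 libraries and 664, 634 and 626 CPM in the EWS-FLI1mut libraries (CPM, the counts of a gene scaled to a common library size with TMM factors). FLI1 was near 0 in mCherry cells, at 0.546 CPM on average, and at 1001, 987 and 1069 CPM in EWS(YS37)-FLI1. The groups did not overlap, and FLI1 was 2.6-fold lower in EWS-FLI1 (log2 fold change -1.38 ± 0.09 SE, edgeR quasi-likelihood test, Benjamini-Hochberg adjusted p = 1.67e-10). EWSR1, whose own gene is active in every line, stood at 742, 724 and 751 CPM in EWS-FLI1 and 1224, 1161 and 1136 CPM in EWS-FLI1mut, with 348, 329 and 343 CPM in mCherry (log2 fold change -0.67 ± 0.05, edgeR adjusted p = 6.89e-10).

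Single transcripts showed where these counts fell. Nearly all FLI1 counts lay on FLI1-209, with 5171, 4422 and 4548 estimated counts in EWS-FLI1, 13280, 12300 and 12240 in EWS-FLI1mut, and 6, 2 and 0 in mCherry. EWSR1-204, a short EWSR1 transcript, took 3989, 3380 and 3985 estimated counts in EWS-FLI1 and 9682, 8990 and 9463 in EWS-FLI1mut, against 0 in each mCherry library. EWSR1-214 and EWSR1-219, also near 0 in mCherry, differed less between the lines. EWSR1-214 took 1683, 1527 and 1286 estimated counts in EWS-FLI1 and 3150, 2944 and 2783 in EWS-FLI1mut. EWSR1-219 was at 588 ± 72.3 TPM in EWS-FLI1 and 736 ± 127 TPM in EWS-FLI1mut (SD, n = 3; TPM, a level per transcript length), and its estimated counts overlapped between these lines. The longer EWSR1-207 differed far less among the 3 lines, at 144 ± 11.9 TPM in EWS-FLI1, 160 ± 8.67 TPM in EWS-FLI1mut and 140 ± 10.8 TPM in mCherry (SD, n = 3). In every result below, the amount and the sequence of the construct differ together between the lines and cannot be told apart.

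**Figure D1:**
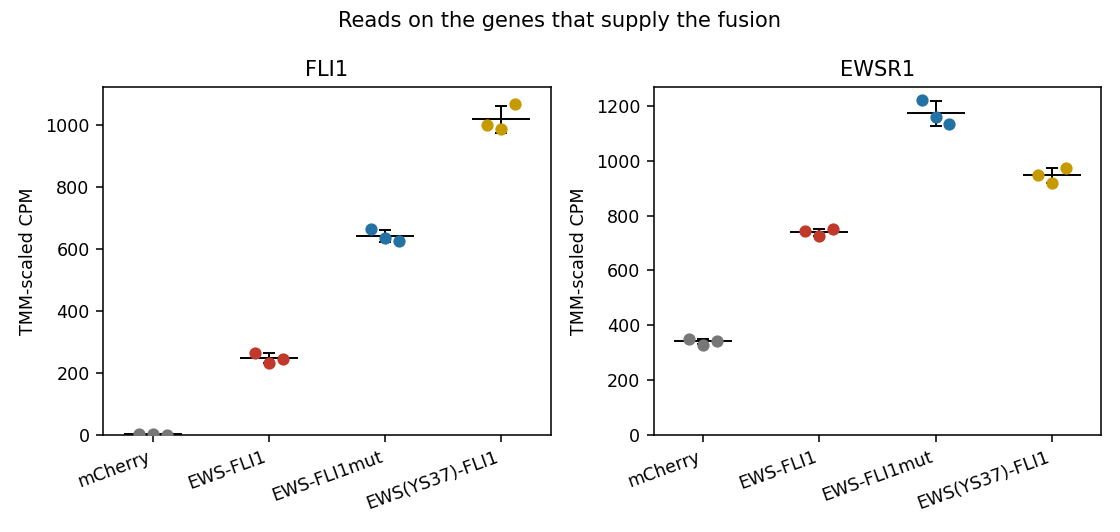
TMM-scaled CPM of FLI1 (left) and EWSR1 (right) in the 12 untreated libraries by line; points are libraries, the long bar is the mean and the error bar the SD of 3. FLI1 lies between 232 and 265 CPM in EWS-FLI1 and between 626 and 664 CPM in EWS-FLI1mut.

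Across the genome, 2734 of 16785 genes tested (16.3%) differed between EWS-FLI1 and EWS-FLI1mut at an edgeR adjusted p under 0.05, the threshold for a call throughout. Of these, 1474 genes (8.78% of those tested) were higher and 1260 (7.51%) were lower in EWS-FLI1. Most differences were small: 1768 of the called genes (64.7%) had an absolute log2 fold change under 0.5, and the median absolute value of the called genes was 0.39. Only 313 called genes (1.86% of those tested) reached a log2 fold change of 1 or more in size, 151 higher and 162 lower. The libraries of the groups did not overlap for 5758 of all genes tested (34.3%) and for 2676 of the called genes. Over all genes tested the median log2 fold change was -0.02, with quartiles of -0.22 and 0.14. The count of calls fell to 1264 when transcript lengths entered the fit and to 1164 with limma on log2(TPM + 1), and the share of calls that were higher in EWS-FLI1 was 53.9% in the main setting, 39.3% without scaling factors, 64.8% with transcript lengths and 43% with limma.

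**Figure D2:**
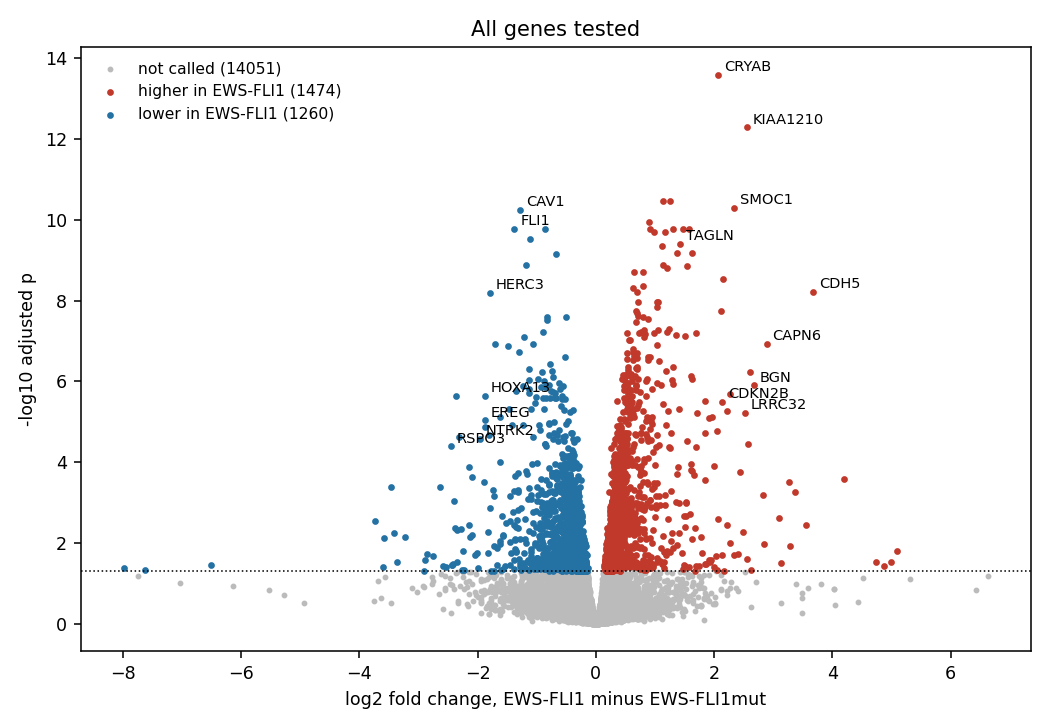
Log2 fold change of EWS-FLI1 minus EWS-FLI1mut against -log10 of the edgeR adjusted p for the 16785 genes tested; the dotted line is an adjusted p of 0.05. Higher genes (1474) are red, lower genes (1260) blue, and CDH5 and CAPN6 stand to the right of most of the strongly supported higher genes.

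CDH5, CAPN6, RSPO3 and HOXA13 were given with the comparison as its marker genes, so their values describe it and are not an independent finding. CDH5 (chr16:66366622-66404786, + strand in GENCODE 29 on GRCh38), which encodes the adhesion molecule VE-cadherin of endothelial junctions, stood at 7.31, 7.19 and 6.39 CPM in EWS-FLI1 and 0.6, 0.618 and 0.409 CPM in EWS-FLI1mut. Its mCherry libraries were at 1.27, 1.04 and 0.694 CPM, and its EWS(YS37)-FLI1 libraries, at 9.89, 8.27 and 12 CPM, were above all others. CDH5 was 12.7-fold higher in EWS-FLI1, with no overlap between the groups (log2 fold change 3.67 ± 0.29, edgeR adjusted p = 6.07e-09). CAPN6 (chrX:111245103-111270523, - strand), a calpain that lacks the active-site cysteine of the proteolytic members, reached 6.9, 12 and 9.24 CPM against 1.35, 0.773 and 1.64 CPM in EWS-FLI1mut. Here all 3 other lines were low, with 1.95, 2.56 and 2.88 CPM in mCherry and 0.853, 0.895 and 0.458 CPM in EWS(YS37)-FLI1 (log2 fold change against EWS-FLI1mut 2.89 ± 0.28, edgeR adjusted p = 1.19e-07). On the log2(TPM + 1) scale, which understates the change of low genes, the difference was 1.63 for CDH5 and 1.63 for CAPN6.

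RSPO3 (chr6:127118604-127197765, + strand) encodes R-spondin 3, a secreted protein that raises Wnt signalling through the LGR receptors. Its level was 1.12, 0.84 and 1.45 CPM in EWS-FLI1 and 5.65, 6.85 and 6.19 CPM in EWS-FLI1mut, with the mCherry libraries between them at 2.58, 1.77 and 3.31 CPM (log2 fold change -2.45 ± 0.36, edgeR adjusted p = 4.06e-05; -1.14 on the log2(TPM + 1) scale). HOXA13 (chr7:27193503-27200106, - strand), the homeobox factor at the end of the HOXA cluster, stood at 6.54, 6.19 and 4.35 CPM in EWS-FLI1 and 22.2, 23.1 and 17.5 CPM in EWS-FLI1mut. Its mCherry libraries, at 12.1, 9.75 and 7.95 CPM, again lay between the groups (log2 fold change -1.88 ± 0.22, edgeR adjusted p = 2.28e-06). For both genes the EWS-FLI1 libraries were below, and the EWS-FLI1mut libraries above, every mCherry library.

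The stretches of 250 bases before the annotated start of CAPN6, BGN, RSPO3 and HOXA13 are shown because the DNA-binding part of the construct recognises GGAA and these 4 genes are among those with the largest differences in either direction. They come from RefSeq (GRCh38.p14) and run 5′ to 3′ on the strand of the gene; capitals mark GGAA and its reverse complement TTCC. CDH5 is named only.

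CAPN6 (chrX:111270484-111270733, - strand): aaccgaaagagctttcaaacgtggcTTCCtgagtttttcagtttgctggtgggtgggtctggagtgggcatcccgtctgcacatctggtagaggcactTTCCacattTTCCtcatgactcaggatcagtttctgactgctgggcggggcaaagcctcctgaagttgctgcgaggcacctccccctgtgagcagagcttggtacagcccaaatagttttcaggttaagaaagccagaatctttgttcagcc
BGN (chrX:153494730-153494979, + strand): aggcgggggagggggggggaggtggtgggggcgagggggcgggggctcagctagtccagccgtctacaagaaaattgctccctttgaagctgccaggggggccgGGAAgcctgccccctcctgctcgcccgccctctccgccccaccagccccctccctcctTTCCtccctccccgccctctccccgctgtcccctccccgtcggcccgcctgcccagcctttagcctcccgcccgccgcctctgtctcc
RSPO3 (chr6:127118421-127118670, + strand): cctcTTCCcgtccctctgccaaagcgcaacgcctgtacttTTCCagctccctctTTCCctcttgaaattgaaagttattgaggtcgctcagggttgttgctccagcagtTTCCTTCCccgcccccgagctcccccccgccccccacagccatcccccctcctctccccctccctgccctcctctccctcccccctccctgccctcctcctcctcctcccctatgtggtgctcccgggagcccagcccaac
HOXA13 (chr7:27200092-27200341, - strand): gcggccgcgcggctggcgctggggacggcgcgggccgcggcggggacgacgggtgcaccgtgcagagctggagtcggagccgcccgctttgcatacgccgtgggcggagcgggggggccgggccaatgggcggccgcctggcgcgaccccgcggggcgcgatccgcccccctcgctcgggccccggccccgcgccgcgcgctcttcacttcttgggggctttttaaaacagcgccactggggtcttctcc

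CAPN6 holds TTCC 3 times and GGAA 0 times in its stretch, BGN each of them 1 time, and RSPO3 TTCC 5 times, including a tandem pair that reads GGAAGGAA on the other strand. HOXA13 holds neither. Over the 35116 RefSeq promoters of 300 bases (250 before and 50 after the start), 95.5% hold GGAA on either strand, 3.67% hold GGAAGGAA and 4.14% hold the longer ETS motif CCGGAAGT, both of which contain GGAA. Binding was not measured in these libraries, and a match describes the letters only.

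Beyond the marker genes, those with the largest differences toward EWS-FLI1 included a chloride channel, a heat shock protein and a cell cycle inhibitor. ANO2, a calcium-activated chloride channel, stood at 11.2, 9.19 and 13.5 CPM against 0.3, 0.567 and 0.972 CPM (log2 fold change 4.20 ± 0.73, edgeR adjusted p = 0.000258; 1.71 with transcript lengths in the fit and 1.39 on the log2(TPM + 1) scale). KIAA1210 was at 44.8, 49.6 and 41.7 CPM against 7.55, 7.63 and 7.93 CPM, with 9.59 to 12.7 CPM in mCherry (2.56 ± 0.12, edgeR adjusted p = 5.14e-13). In both genes the EWS-FLI1 libraries stood above the EWS-FLI1mut and the mCherry libraries in CPM. For ANO2 this did not hold per transcript length: it was at 8.11 ± 2.04 TPM in EWS-FLI1, 2.48 ± 0.858 TPM in EWS-FLI1mut and 7.84 ± 4.29 TPM in mCherry (SD, n = 3). CRYAB, the small heat shock protein alpha B-crystallin, had the smallest p-value of all genes tested: 103, 108 and 110 CPM against 23.3, 25.6 and 28 CPM, with 33.5 to 36 CPM in mCherry (2.07 ± 0.08, edgeR adjusted p = 2.56e-14). SMOC1, a matricellular calcium-binding protein that modulates BMP signalling, was at 55, 49.2 and 55.8 CPM against 10.4, 9.02 and 12.3 CPM (2.33 ± 0.14). For SMOC1 the mCherry libraries, at 17.6 to 23.1 CPM, lay above EWS-FLI1mut and below EWS-FLI1. CDKN2B, which encodes the CDK4/6 inhibitor p15, stood at 14.3, 15 and 11.1 CPM against 2.9, 2.58 and 3.73 CPM, and SCX, the tendon factor scleraxis, at 18.7, 17.7 and 14.9 CPM against 3.8, 3.66 and 4.09 CPM. Both were in mCherry as low as in EWS-FLI1mut, at 2.68 to 2.85 CPM for CDKN2B and 2.56 to 4.43 CPM for SCX.

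C1QTNF3 (log2 fold change 2.61), LRRC32 (2.52), CD248 (2.26), MAP3K7CL (2.12) and F13A1 (2.04) completed the upper end. The rule that picked them required a call and no overlap of the groups. LRRC32, the surface protein GARP that holds latent TGF-beta, was at 7.72, 7.3 and 6.45 CPM against 1.25, 1.13 and 1.33 CPM. CD248, endosialin, a surface glycoprotein of pericytes and stromal cells, was at 11.9, 17.6 and 16.3 CPM against 3.6, 2.83 and 3.12 CPM. F13A1, the catalytic chain of coagulation factor XIII, differed by 1.29 with transcript lengths in the fit and by 0.88 on the log2(TPM + 1) scale. GGTLC2 (2.44) belongs to a family of near-identical copies, and reads may be split among them. Among the most strongly supported differences below that size were the metallothionein MT2A (279, 284 and 297 against 130, 125 and 137 CPM, log2 fold change 1.13 ± 0.06), DAAM2, a formin of Wnt planar polarity (1.25 ± 0.07), TNNC1, slow and cardiac troponin C (1.48 ± 0.10), PKIB, an inhibitor of protein kinase A (1.30 ± 0.08), and CSRP1, a LIM protein of actin bundles (0.90 ± 0.06). MT2A also has close copies, so its value is uncertain to that extent.

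**Figure D3:**
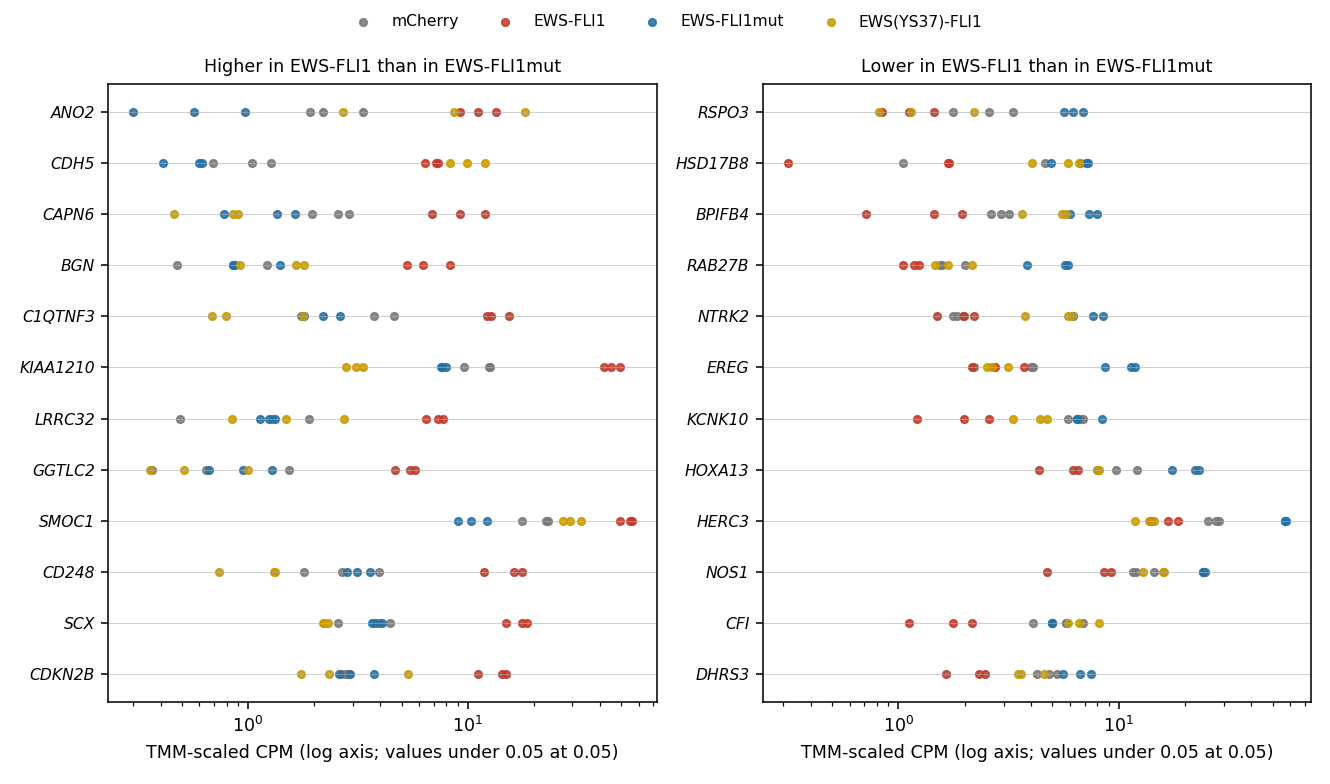
TMM-scaled CPM (log axis) of the protein-coding genes that differed most in log2 fold change among called genes of at least 5 CPM in the higher group, 12 higher (left) and 12 lower (right). Each point is an untreated library and is coloured by line. EWS-FLI1 and EWS-FLI1mut do not overlap for any gene drawn, because the rule for these genes required it; CDH5 is as high in EWS(YS37)-FLI1 (8.27 to 12 CPM) as in EWS-FLI1, while CAPN6 is not (0.458 to 0.895 CPM).

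Genes of the contractile actin cytoskeleton, many of them targets of serum response factor, were higher in EWS-FLI1: 19 of the 32 tested were called higher and 2 lower, and the list's median log2 fold change was 0.30 (all genes -0.02). Of all genes tested 8.78% were called higher and 7.51% lower, the shares to set beside this and every later list count. TAGLN, the actin-binding protein SM22, stood at 151, 117 and 149 CPM against 48.3, 55.6 and 52.5 CPM, and its mCherry libraries, at 53.9, 41.5 and 51.3 CPM, were level with EWS-FLI1mut (log2 fold change 1.42 ± 0.10, edgeR adjusted p = 4.01e-10). CNN1, calponin 1, was at 39.6, 33.9 and 38.2 CPM against 14.3, 12.2 and 11.9 CPM (1.54 ± 0.11), and CALD1, caldesmon, at 360 ± 15.8 CPM against 190 ± 5.3 CPM (SD, n = 3), a log2 fold change of 0.92 ± 0.06. The EWS-FLI1 libraries were above every EWS-FLI1mut and every mCherry library for all 3 genes. The lower members were the formin FHOD3, at 3.42, 3.25 and 3.76 CPM against 8.55, 8.5 and 9.52 CPM (-1.35 ± 0.16), and MYLK, the myosin light chain kinase (-0.47 ± 0.07). Among YAP and TEAD factors and targets, 8 of 24 were higher and 2 lower, with a median of 0.14. The count of higher members was 2 with limma on log2(TPM + 1).

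Of 34 collagen genes tested, 13 were called higher in EWS-FLI1, 2 lower and 19 not called, with a median log2 fold change of 0.34. The shares over all genes tested were 8.78% higher and 7.51% lower. COL3A1, a chain of fibrillar collagen, was at 147, 187 and 168 CPM against 78, 79.7 and 86.2 CPM, with mCherry between them at 124 to 131 CPM (1.04 ± 0.10). COL22A1 (1.28 ± 0.14), COL8A2 (1.59 ± 0.34) and COL1A1 (0.56 ± 0.09) were higher as well, and COL8A1 (-0.69 ± 0.19) and COL6A1 (-0.31 ± 0.10) were the lower members. The call of COL8A1 was lost without the first EWS-FLI1 library and without the first or the second EWS-FLI1mut library.

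Matrix proteoglycans and glycoproteins were divided, with 14 of 42 higher (8 with limma), 9 lower and 19 not called, and a median of 0.14. BGN, the proteoglycan biglycan (chrX:153494939-153509554, + strand), was at 5.31, 6.25 and 8.33 CPM against 0.85, 1.39 and 0.87 CPM (2.67 ± 0.30, edgeR adjusted p = 1.25e-06). LOXL1, a cross-linking enzyme of elastin and collagen, was at 309, 343 and 312 CPM against 151, 146 and 149 CPM (1.11 ± 0.08). In the other direction, the heparan sulfate proteoglycan SDC1, syndecan-1, was at 105, 108 and 102 CPM against 195, 188 and 189 CPM (-0.86 ± 0.05), with mCherry at 186 to 208 CPM. MGP, an inhibitor of calcification, was lower too, at 0.869, 0.735 and 1.02 CPM against 3.7, 4.43 and 3.17 CPM (-2.10 ± 0.52). Of 26 matrix proteases and inhibitors, 10 were higher (6 with limma) and 3 lower. The gelatinase MMP9 was at 65, 39.2 and 76.2 CPM against 23.2, 21.1 and 17.8 CPM (1.54 ± 0.22), and MMP2 at 676, 748 and 744 CPM against 416, 424 and 467 CPM (0.73 ± 0.09). Integrins counted 5 higher and 3 lower of 22, where 8.78% and 7.51% of all genes tested were. They were led by the collagen receptor chain ITGA11, at 26.8, 28.3 and 28.3 CPM against 6.35, 9.59 and 11.2 CPM (1.62 ± 0.18).

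Inflammatory and NF-kB genes were higher in EWS-FLI1 in 13 of 27 cases and lower in 1, with a median log2 fold change of 0.51. IL32, an inflammatory cytokine, was at 44.3, 34.8 and 39.5 CPM against 13.4, 11.8 and 14.8 CPM (1.57 ± 0.10, edgeR adjusted p = 1.67e-10). The chemokine CCL2 was at 5.98, 3.62 and 5.32 CPM against 0.8, 0.876 and 1.53 CPM (2.21 ± 0.28), and CXCL8, interleukin 8, at 9.71, 5.14 and 6.5 CPM against 1.5, 2.37 and 2.1 CPM (1.84 ± 0.32). The groups did not overlap for these 3 genes, though the chemokines were at low levels in both. TRAF1, an adaptor of TNF receptors and itself an NF-kB target, differed by 1.84 ± 0.26 (0.88 on the log2(TPM + 1) scale). The lower member was CSF1, the macrophage growth factor (-0.48 ± 0.09). Of 35 interferon-stimulated genes, 30 were not called and 5 were lower, where 7.51% of all genes tested were: IFI44 (12, 12.4 and 11 against 21.3, 23.1 and 30.1 CPM, -1.07 ± 0.15), USP18 (-0.95 ± 0.22), HERC6, OAS3 and PARP9. For that list edgeR called 0 higher (3 at an unadjusted p under 0.05), and DESeq2 called 0.

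Of 27 genes of sterol synthesis and uptake, 10 were higher (6 with limma), 1 was lower and 16 were not called; the median was 0.20, and the values ran from -0.26 to 0.58. SQLE, squalene epoxidase, was at 132, 118 and 122 CPM against 92.4, 80.7 and 82 CPM (0.54 ± 0.07). SREBF2, the factor that drives the pathway, differed by 0.53 ± 0.05, while its relative SREBF1, a driver of fatty acid synthesis, was the lower member (-0.26 ± 0.06). Of 29 genes of folding and degradation in the endoplasmic reticulum, 9 were higher, with a median of 0.10; edgeR called 0 lower, with 0 at an unadjusted p under 0.05, and DESeq2 called 0. HERPUD1, a component of the degradation machinery, was at 70.9, 63.2 and 63 CPM against 39.5, 36.2 and 31.1 CPM (0.88 ± 0.09), and the chaperone HYOU1 differed by 0.56 ± 0.06. For SQLE and HERPUD1 all EWS-FLI1 libraries lay above the range of EWS-FLI1mut.

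**Figure D4:**
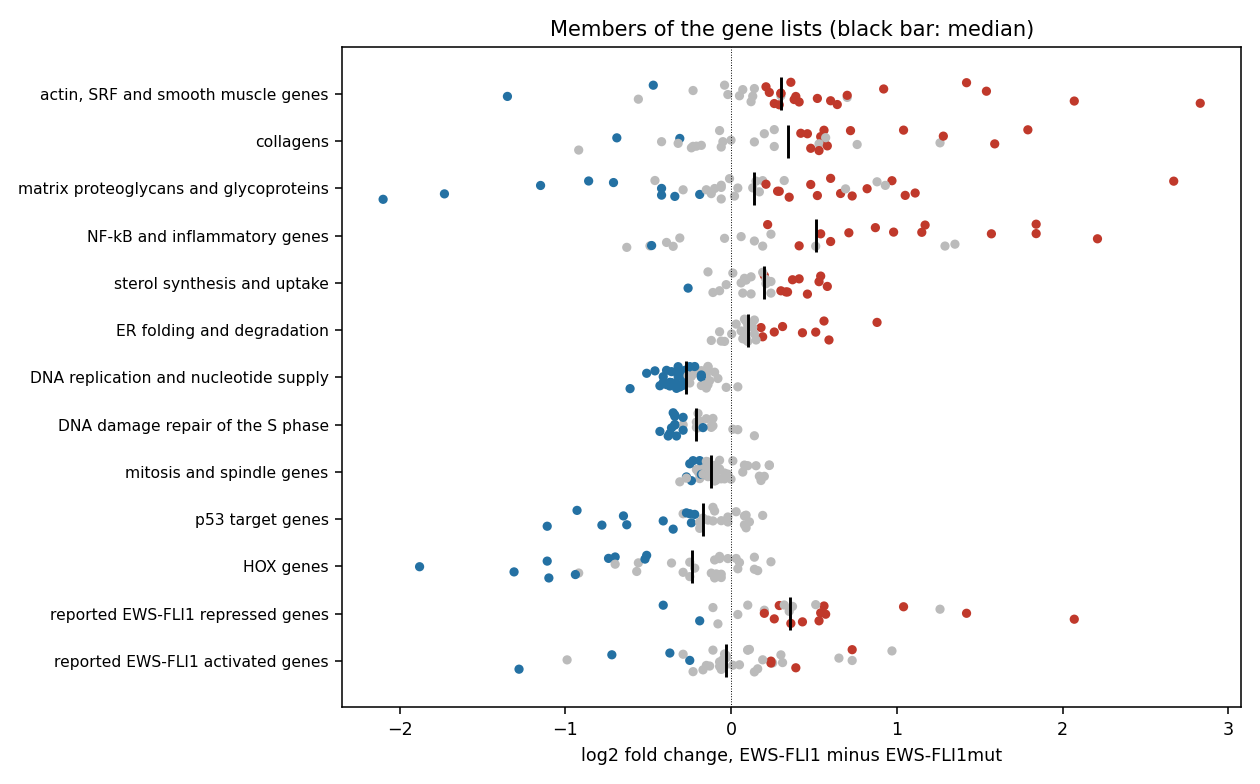
Log2 fold change (EWS-FLI1 minus EWS-FLI1mut) of each tested member of 13 gene lists; red points are called higher, blue called lower, grey not called, and the black bar is the median. Medians run from -0.27 for DNA replication to 0.51 for NF-kB and inflammatory genes; vertical scatter only separates points.

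Among 29 Wnt receptors and feedback targets, 4 were called lower, where 7.51% of all genes tested were, and 25 were not called; the list's median log2 fold change was -0.12. LGR4, the receptor that binds R-spondins, was at 21.5, 28.5 and 18.2 CPM in EWS-FLI1 and 54.4, 57.8 and 55.2 CPM in EWS-FLI1mut, with mCherry at 34.8, 37.5 and 30.6 CPM (log2 fold change -1.30 ± 0.13, edgeR adjusted p = 1.86e-07). AXIN2, a feedback inhibitor that Wnt signalling induces, was at 29.7, 34.8 and 33.1 CPM against 53.5, 54.4 and 57.9 CPM, with mCherry at 39.3 to 45.3 CPM (-0.76 ± 0.09). As for RSPO3, the mCherry libraries of LGR4 and AXIN2 lay between the groups without overlap. The other 2 lower members were FZD7 (-0.50 ± 0.11) and NKD1 (-0.38 ± 0.11). The call of NKD1 was lost with transcript lengths in the fit (0.09), in limma (0.02), and without the first or the third EWS-FLI1 library or the second or the third EWS-FLI1mut library. EdgeR called 0 of the 29 higher (3 at an unadjusted p under 0.05), and DESeq2 called 1. Among 18 ligands, agonists and antagonists, RSPO3 and the antagonist SFRP1 (-0.56 ± 0.09) were lower, and the ligands WNT10A (1.66 ± 0.28) and WNT5B (0.95 ± 0.17) were higher. WNT10A was at 5.06, 3.94 and 4.08 CPM against 1.5, 1.34 and 1.28 CPM.

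HOX genes were lower in EWS-FLI1 where they differed: 9 of 34 tested were called lower, where 7.51% of all genes tested were, and the median was -0.23. EdgeR called 0 higher, 0 reached an unadjusted p under 0.05 in that direction, and DESeq2 and limma called 0. The lower genes lay mainly in the HOXA cluster, with 6 of 11 called and a median of -0.57. HOXA13 was followed there by HOXA3 (4.75, 5.25 and 7.09 against 14.6, 9.48 and 12.6 CPM, -1.11 ± 0.21), HOXA11 (12.1, 14.4 and 10.6 against 24.3, 25.6 and 21.1 CPM, -0.94 ± 0.13), HOXA4 (-0.74 ± 0.18), HOXA9 (-0.52 ± 0.12) and HOXA10 (-0.51 ± 0.10). The mCherry libraries of HOXA3 (4.85 to 8.06 CPM) and HOXA11 (11.8 to 16.4 CPM) overlapped EWS-FLI1 and lay below EWS-FLI1mut. In the HOXD cluster HOXD11 (-1.31 ± 0.24) and HOXD10 (-1.10 ± 0.21) were the 2 called of 6 tested. For HOXD11 the mCherry libraries (4.45 to 5.82 CPM) overlapped EWS-FLI1mut, and for HOXD10 (4.32 to 6.34 CPM) they lay between the groups. HOXB2 (-0.70 ± 0.15) was the 1 called of 9 HOXB genes. Of 8 HOXC genes edgeR called 0 lower, with 1 at an unadjusted p under 0.05, DESeq2 called 0 and limma called 1. Whether the clusters differ from each other was not tested. Neighbouring genes on that part of chromosome 7 tended lower as well, with values given at the end. Whether the HOXA values are part of that was not tested. Strandedness of the libraries is not given in the sources used here, so reads of HOX genes and of their antisense partners cannot be told apart.

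**Figure D5:**
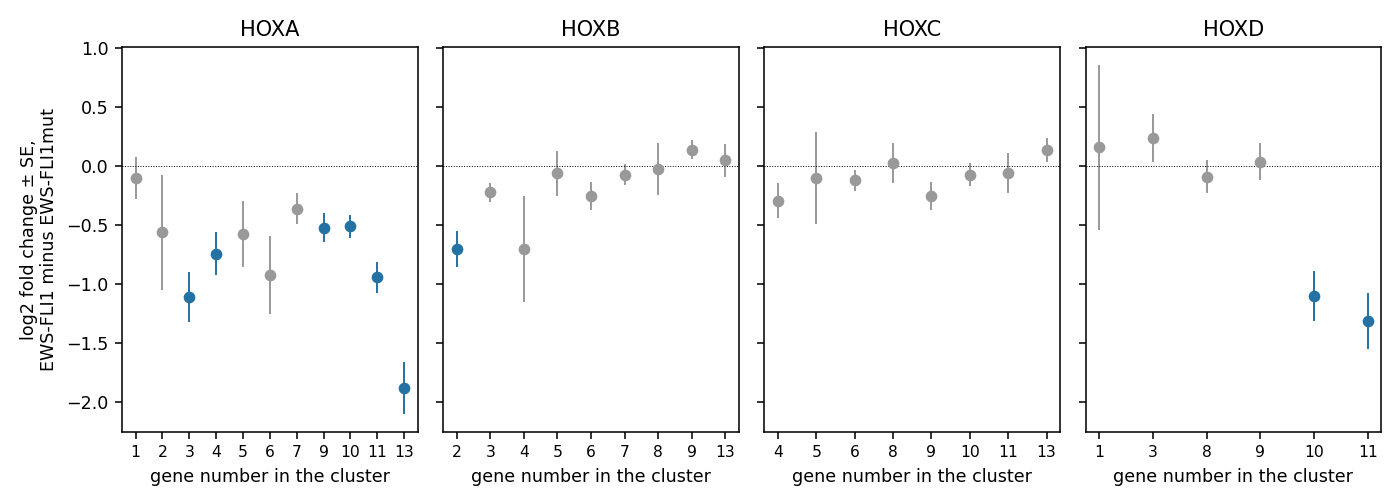
Log2 fold change ± SE (EWS-FLI1 minus EWS-FLI1mut) of the 34 HOX genes tested, by cluster and gene number; blue points are called, grey are not. HOXA13 is lowest at -1.88, and HOXB and HOXC members other than HOXB2 are not called.

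Ligands and receptors for growth factors differed gene by gene. EREG, the EGF receptor ligand epiregulin, was at 3.73, 2.15 and 2.74 CPM in EWS-FLI1 and 11.4, 11.8 and 8.65 CPM in EWS-FLI1mut, with mCherry at 2.21 to 4.08 CPM (log2 fold change -1.88 ± 0.25, edgeR adjusted p = 9.2e-06). HBEGF, another ligand of that receptor, went the other way, at 29.1, 25.1 and 25.4 CPM against 14.2, 12.6 and 11.5 CPM (1.05 ± 0.10). NTRK2, the receptor for brain-derived neurotrophic factor, was at 1.99, 2.2 and 1.5 CPM against 8.45, 6.18 and 7.67 CPM, with mCherry at 1.77 to 1.97 CPM (-1.96 ± 0.28; -0.85 on the log2(TPM + 1) scale). For EREG and NTRK2, then, the mCherry libraries were level with EWS-FLI1 and all lay below EWS-FLI1mut. MET, the hepatocyte growth factor receptor, was at 47.4, 46.3 and 43.8 CPM against 114, 106 and 92.5 CPM, with mCherry at 52 to 67.6 CPM (-1.18 ± 0.09, edgeR adjusted p = 1.32e-09). RGS4, which switches off G protein signals, was at 4.4, 4.2 and 4.67 CPM against 10.9, 13.7 and 12.3 CPM (-1.47 ± 0.19). Its mCherry libraries, at 2.95 to 4.87 CPM, overlapped EWS-FLI1 and lay below EWS-FLI1mut. Counts over the lists were 3 higher and 4 lower of 14 for the EGF family (1 lower with transcript lengths in the fit). For neurotrophins and receptors 2 of 10 were lower, NTRK2 and NTF4. The call of NTF4 was lost with transcript lengths in the fit and in limma. It was also lost without any single library of the comparison other than the second EWS-FLI1mut library. The TGF-beta, BMP and ID genes had 7 higher and 7 lower of 33. Over all genes tested the shares were 8.78% higher and 7.51% lower.

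Within the TGF-beta and BMP list the higher genes included LRRC32 and the BMP antagonist NOG, at 94, 71.6 and 86.5 CPM against 39, 40.8 and 34.3 CPM (1.14 ± 0.08). The lower genes included ID4, an inhibitor of helix-loop-helix factors (-0.90 ± 0.18), and FST, the activin antagonist follistatin (-0.70 ± 0.08). For FST the mCherry libraries (37.5 to 38.4 CPM) were level with EWS-FLI1 (32.6 to 39.6 CPM) and below EWS-FLI1mut (56.8 to 62.6 CPM). For ID4 they lay between the groups (11.5 to 12.6 CPM). Among 28 vascular genes, CDH5 and ENG, a co-receptor of TGF-beta ligands, were higher, a count near the 8.78% of all genes tested. ENG was at 34.2, 38.5 and 37.1 CPM against 16.5, 14.8 and 16.3 CPM (1.20 ± 0.11). Another 5 of the 28 were lower, where 7.51% of all genes tested were: S1PR1, MMRN2, NRP1, FLT4 and EGFL7. The list's median was -0.09. That count of 5 was 1 with transcript lengths in the fit and 2 or 3 without any single library of the comparison.

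Further genes with large lower levels in EWS-FLI1 had other roles. HERC3, a ubiquitin ligase, was at 18.6, 16.8 and 14 CPM against 57.5, 56.8 and 56.5 CPM, with mCherry at 25.3 to 28.5 CPM (-1.79 ± 0.14, edgeR adjusted p = 6.38e-09). NOS1, the neuronal nitric oxide synthase, was at 8.53, 9.19 and 4.73 CPM against 24.2, 24.2 and 24.7 CPM (-1.70 ± 0.16; -1.01 on the log2(TPM + 1) scale). In both genes the mCherry libraries lay between the groups. KCNK10, a background potassium channel, was at 1.99, 1.21 and 2.58 CPM against 6.45, 8.4 and 6.45 CPM (-1.88 ± 0.26), and CAV1, the coat protein of caveolae, at 138, 130 and 129 CPM against 352, 329 and 283 CPM (-1.28 ± 0.08, edgeR adjusted p = 5.8e-11). The mCherry libraries of KCNK10 (5.9 to 6.88 CPM) and CAV1 (261 to 303 CPM) were close to EWS-FLI1mut and above EWS-FLI1. MYOF, the membrane repair protein myoferlin, followed the same order, at 41.3, 37 and 38.1 CPM against 73.9, 68.9 and 63.3 CPM, with 64.7 to 75.2 CPM in mCherry (-0.82 ± 0.07). CFI (-1.63), DHRS3 (-1.62), CHI3L1 (-1.52), BPIFB4 (-2.37), HSD17B8 (-2.38) and RAB27B (-2.15) were also called lower, and the call of RAB27B was lost with transcript lengths in the fit and in limma. Mean levels in mCherry differed in their place. For CFI mCherry (5.31 CPM) was near EWS-FLI1mut (5.23 CPM), and for RAB27B (1.71 CPM) it was nearer EWS-FLI1 (1.15 CPM) than EWS-FLI1mut (5.14 CPM). For CHI3L1 mCherry (2.47 CPM) was below both EWS-FLI1 (5.29 CPM) and EWS-FLI1mut (15.2 CPM). For DHRS3, BPIFB4 and HSD17B8 it lay between the means of the groups.

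Genes of DNA replication and nucleotide supply were lower in EWS-FLI1 by small amounts: 32 of 50 tested were called lower, and the median log2 fold change was -0.27. EdgeR called 0 of the 50 higher, 0 reached an unadjusted p under 0.05 in that direction, and DESeq2 called 0. TYMS, thymidylate synthase, was at 426, 452 and 432 CPM against 633, 619 and 606 CPM, with mCherry at 571 to 602 CPM (-0.51 ± 0.04, edgeR adjusted p = 2.48e-08). RRM2, a subunit of ribonucleotide reductase, was at 126, 162 and 187 CPM against 273, 215 and 235 CPM (-0.61 ± 0.12), and GINS4, a part of the replicative helicase, at 50.7, 56.2 and 47.9 CPM against 70.8, 73.1 and 68.7 CPM (-0.46 ± 0.07). POLD3, a subunit of polymerase delta, differed by -0.43 ± 0.08. By role, a grouping made after the values were seen, the MCM2-7 helicase had 6 of 6 called lower (-0.33 to -0.16), the polymerases and primase 5 of 9, the clamp and its loader 3 of 5, origin licensing 3 of 5, nucleotide supply 4 of 7 and GINS 1 of 4. The count of 32 became 15 with transcript lengths in the fit and 19 with limma on log2(TPM + 1).

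Repair genes of the S phase were lower in 13 of 28 cases, with a median of -0.21, led by FANCD2 (-0.43 ± 0.07), the monoubiquitinated protein of crosslink repair. This count was 3 with transcript lengths, 4 with limma, and 7 or 8 without the third EWS-FLI1 or the first or second EWS-FLI1mut library. Among cyclins, CDKs, their inhibitors and E2F factors, 4 of 30 were higher and 11 lower (6 with transcript lengths, 7 without the third EWS-FLI1 library). Of all genes tested 8.78% were higher and 7.51% lower. The factor E2F2 was at 14.9, 15.8 and 16.4 CPM against 31.5, 29.8 and 33.9 CPM, with mCherry at 26.3 to 30.1 CPM (-1.02 ± 0.12, edgeR adjusted p = 2.47e-06). CCNE1, cyclin E1, was at 58.8, 65.6 and 56.3 CPM against 93.4, 96.5 and 97.5 CPM (-0.67 ± 0.08). The kinase CDK6, in contrast, was higher, at 561, 490 and 479 CPM against 317, 285 and 267 CPM (0.82 ± 0.07), as was CDKN2B. Mitosis and spindle genes had 6 of 47 lower, where 7.51% of all genes tested were, and a median of -0.12; the 6 were BUB1B, FOXM1, PRC1, CCNB2, BIRC5 and MYBL2, and the count ranged from 0 with transcript lengths to 13 without scaling factors.

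Targets of p53 were lower where called, 11 of 29, with a median of -0.17, and the count was 5 with transcript lengths and 6 with limma, without the second EWS-FLI1 library or without the first EWS-FLI1mut library. EdgeR called 0 higher, 0 reached an unadjusted p under 0.05 in that direction, and DESeq2 called 0. PLK2, a polo-like kinase, was at 67.7, 84.4 and 68.5 CPM against 157, 163 and 157 CPM, with mCherry at 157 to 163 CPM (-1.11 ± 0.07, edgeR adjusted p = 2.92e-10). FDXR, a mitochondrial reductase, was at 60.1, 70.4 and 69.9 CPM against 106, 112 and 127 CPM (-0.78 ± 0.08), DDB2, a sensor of ultraviolet damage, at 49.2, 53.7 and 58.2 CPM against 79.4, 80 and 89.7 CPM (-0.63 ± 0.07), and the death receptor FAS at 8.79, 6.98 and 5.48 CPM against 14.1, 11.1 and 15.3 CPM (-0.93 ± 0.16). The mCherry libraries of PLK2 were level with EWS-FLI1mut, while those of FDXR and DDB2 lay between the groups.

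Genes known from Ewing sarcoma studies as repressed by EWS-FLI1 were higher in EWS-FLI1 than in EWS-FLI1mut in 12 of 24 cases and lower in 2, with a median of 0.36. They included CRYAB, TAGLN and COL3A1, described above, and TGFBR2, a receptor of TGF-beta (0.54 ± 0.06), and several stand in the actin and matrix lists as well. The lower members were CDKN1A (-0.41 ± 0.06), the CDK inhibitor p21, and THBS1 (-0.19 ± 0.05). Genes reported as activated had 4 of 37 higher and 4 lower, shares near the 8.78% and 7.51% of all genes tested, and a median of -0.03. The higher members were the matrix protein TNC, at 293 ± 12.5 CPM against 177 ± 4.64 CPM (SD, n = 3; 0.73 ± 0.07), KDSR, JAK1 and CD99, and the lower ones CAV1, UPP1 (-0.72 ± 0.08), EZH2 and FOXM1. The calls of KDSR, EZH2 and FOXM1 were each lost without the first EWS-FLI1 library. Among the 23 ETS genes tested, FLI1 was the 1 lower. Its counts, near 0 in mCherry, are those of the construct, so they describe the construct's amount. ETS1, at 140, 115 and 125 CPM against 77.1, 79 and 74.2 CPM (0.72 ± 0.06), led 6 higher, a count that was 2 with transcript lengths and 1 with limma.

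Markers of the labelled line and of other cell types were summed in each library. The bone and osteoblast genes of the labelled line summed to 3500 to 3760 TPM in EWS-FLI1 and 2374 to 2690 TPM in EWS-FLI1mut, with IBSP and DMP1 at 0 in all 6 libraries, and 4 of 11 tested were higher (ALPL, COL1A1, SPARC and RUNX2) and 1 lower (SPP1). Endothelial markers summed to 27.6 to 33.5 TPM and 42.6 to 46.1 TPM in the same order, with ECSCR at 0 in all 6, and 1 of 9 tested, MMRN2, was lower. MMRN2 made up much of the gap, at 14.4 ± 3.16 TPM against 23.8 ± 0.519 TPM (SD, n = 3), and its call was lost with transcript lengths in the fit, in limma and without any single library of the comparison. Epithelial markers summed to 820 to 866 and 773 to 800 TPM (2 of 7 tested higher, KRT14 and KRT18). Neuronal markers summed to 202 to 217 and 219 to 244 TPM (2 of 7 higher, MAP2 and SNAP25). Blood markers summed to 3.23 to 8.13 and 6.69 to 12 TPM (1 of 3 lower, CD68), with CD3E at 0 in all 6. The calls of ALPL, RUNX2 and CD68 were lost with transcript lengths in the fit and in limma. That of CD68 was also lost without the first EWS-FLI1 library, and that of MAP2 in limma. Of all genes tested 8.78% were higher and 7.51% lower. Replication-dependent histones, read as a sign of RNA quality since their mRNAs end without a poly(A) tail, summed to 1424 to 1736 and 1534 to 1701 TPM, ranges that overlap. The part of these sums in the gene lists above was not tested, and in bulk RNA fewer cells of a kind and less RNA per cell cannot be told apart.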

How the data were processed

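Polyadenylated RNA of 18 U2OS libraries was measured, and 6 of them are compared here. The authors deposited 1 transcript table per library, holding, per the file headers, estimated counts (expected counts, not normalized), TPM and an effective transcript length in bases. The submitters' processing notes name kallisto 0.46, CASAVA and hg38; the transcript set and index are not given in the sources used here, and of 2 library kits named, the labels do not say which library used which. Transcripts were assigned to genes with GENCODE 29. Counts without a match there, 2.66% to 2.69% per library, were dropped. The rest was added up per gene and rounded to whole numbers.

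The test was the quasi-likelihood test of edgeR 4.0.16 (R 4.3.3), with TMM factors, on all 18 libraries with a term for group. After filterByExpr 16785 of 35579 genes were tested, with 12 residual degrees of freedom. The biological coefficient of variation was 8.77%. Benjamini-Hochberg adjustment ran over all genes of the fit, and a call is an adjusted p under 0.05. A standard error is the size of the log2 fold change divided by the root of F. DESeq2 1.42.0 and limma 3.58.1 on log2(TPM + 1), with a pseudocount of 1, were alternatives. The fit was tested on simulated data.

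Members and the 39 gene lists, written from general knowledge, were chosen with earlier results of these data known, and some genes stand in several lists. Genes are named by a rule: FLI1, EWSR1 and the 4 markers; the 15 higher and 15 lower protein-coding genes with the largest fold among calls of at least 5 CPM in the higher group without overlap; the 10 in each direction with the largest F; 5 in each direction of other biotypes; and up to 5 called members per list of at least 2 CPM. Genes outside it (COL6A1, MYLK, SREBF1, CSF1, FLT4, EGFL7, THBS1, CDKN1A and others completing a short count) were named after their values were seen. Not every gene under the rule is reported here.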

Additional observations from a re-analysis of the deposited data

How the results depend on the processing

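The count of 2734 calls lay between 2739 and 2973 with RLE or upper-quartile scaling, without scaling factors, without the filter on low counts, with DESeq2, and in fits of 6 or 12 libraries. It was 1164 with limma on log2(TPM + 1), 1264 with transcript length offsets (1163 of them shared) and 192 when tested against a log2 fold change of 0.5. Higher calls were 501, 819 and 119 and lower calls 663, 445 and 73 under those 3 settings, and calls of at least 1 log2 unit were 167 with limma and 140 against 0.5. Leaving out 1 library at a time gave 1927 to 2328 calls, 1089 to 1453 higher, 786 to 921 lower (838 without EWS-FLI1 replicate 1 and 786 without EWS-FLI1mut replicate 1) and 268 to 295 of at least 1 log2 unit. Of 195 named genes called, 133 remained called in every setting other than the test against 0.5, and 62 were lost in at least 1, 47 of them with length offsets and 54 with limma. NKD1 turned to 0.02 with limma and 0.09 with length offsets. HIST1H1C, not called, was 0.01 with length offsets and between -0.07 and 0.07 without 1 library. The cause was not tested. The values gave no sign of pairing by replicate number. Deviations from the group means correlated at 0.025, -0.0399 and 0.13 for same-numbered libraries over 11624 genes. For differently numbered ones they correlated between -0.151 and 0.14. Whether same-numbered libraries were made together is not labelled. A replicate block gave 2772 calls, 2636 of them shared.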

Other observations

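Further gene groups are given by their counts, where 8.78% of all genes tested were higher and 7.51% lower. Of 46 lysosomal proteins and V-ATPase subunits, 6 were higher, led by the protease CTSF (18.7, 19.9 and 19.2 against 8.7, 9.9 and 11.7 CPM, log2 fold change 0.93 ± 0.12), and 8 lower. CTSB, cathepsin B, was at 446, 467 and 487 CPM in EWS-FLI1, 687, 702 and 713 CPM in EWS-FLI1mut and 395 to 464 CPM in mCherry (-0.59 ± 0.07), and NPC2, a cholesterol carrier of the lysosome, followed the same order (-0.52 ± 0.09). Of 44 potassium channels, 6 were higher, among them KCNH2 (20.2, 27.1 and 21.4 against 10.7, 9.79 and 9.72 CPM, 1.19 ± 0.16) and KCNQ3 (0.95 ± 0.13), and 6 lower. Axon guidance genes counted 7 higher and 8 lower of 52; the receptor EPHA5 was at 6.69, 9.19 and 7.31 CPM against 15.6, 16.2 and 18.8 CPM (-1.13 ± 0.13), and the ligand SEMA3E at 93.3, 108 and 98.5 CPM against 59, 59 and 60.7 CPM (0.75 ± 0.09). Outside protein-coding genes, 87 of 1354 genes tested were called, against 2647 of 15431 protein-coding ones. Immediate early genes had 5 of 25 higher and MAPK feedback genes 6 of 20 higher, counts that were 1 and 2 with transcript lengths in the fit; the amino acid response had 2 higher and 6 lower of 30, and with transcript lengths the lower count was 1.

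Neighbouring genes were examined after the values were seen, in 466 windows of 25 genes each along the chromosomes (GENCODE 29 on GRCh38). Only genes averaging at least 5 CPM in the higher group entered the windows. The shares called among those genes were not computed. The 8.78% higher and 7.51% lower hold for all genes tested, low ones included, and are no like measure for the window counts. Window medians of the log2 fold change ran from -0.28 to 0.25, and 4 lay above 0.2 and 4 below -0.2. The highest were 2 adjoining windows of chromosome 6, at 34792015 to 37499922 (15 of 25 genes called higher, 1 lower) and 37630679 to 42452051 (12 higher, 1 lower), each with a median of 0.25. The lowest was on chromosome 12, at 6765516 to 8097859, with 13 of 25 genes called lower and a median of -0.28. The next windows of chromosome 6, at 42564062 to 43576075 and 43576150 to 52284881, had medians of 0.14 and 0.21. On chromosome 16 every window from 46407 to 50037088 had a negative median, down to -0.21, and later windows ran from -0.002 to 0.18. On chromosome 7 every window from 192969 to 32495283 had a negative median, down to -0.21. The last of these, from 27106184, covers HOXA3, HOXA11 and HOXA13 and had 4 genes called higher, 7 lower and a median of -0.16. Over all genes tested, with no limit on level, chromosome 15 had 24 called higher and 62 lower of 580. Chromosome 20 had 70 higher and 26 lower of 440. The cause of these regional differences was not tested.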
